A study of Homo sapiens with 6 samples.

Results

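AATF, which encodes the protein Che-1, was examined together with NGDN and NOL10, the genes of its partners in the nucleolus, in the human myeloma line KMS27. The rows were chosen by symbol: every deposited transcript paired with one of these symbols was taken, and transcript values were summed per gene ID. This gave 3 of 63677 genes and 28 of 215170 transcripts, 9 of AATF (ENSG00000108270), 13 of NGDN (ENSG00000129460) and 6 of NOL10 (ENSG00000115761). KMS27, an established cell line, was derived from malignant plasma cells, and the study compared 3 libraries labelled HA-TAZ with 3 labelled wild type. TAZ is a transcriptional coactivator encoded by WWTR1, and HA is a short peptide tag carried by the overexpressed protein. The series title places Che-1, a microRNA and TAZ in an axis in multiple myeloma, and the question asked of these rows was whether AATF and its partners differed when TAZ was overexpressed. The labels do not give the vector, its promoter or whether the HA-TAZ cells are 1 clone. Whether the replicates of a group came from separate cultures is not stated either, so p-values measure only the spread between these libraries.

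The columns named for TAZ keep their numbers as HA-TAZ 1, 2 and 3. The label scr on the remaining columns appears nowhere in the sample labels; they were assigned to wild type by elimination and are lettered control a, b and c. HA also appears in the wild type titles, and whether control cells received a construct is not stated.

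Human ribosomes are assembled in the nucleolus, where the precursor of the small subunit RNA is folded and cut inside a large particle, the small subunit processome. AATF, NGDN and NOL10 proteins bind each other and act in this particle; their yeast counterparts are Bfr2, Lcp5 and Enp2. AATF has a further life outside the nucleolus: as Che-1 it binds RNA polymerase II and the retinoblastoma protein, and after DNA damage it is phosphorylated by checkpoint kinases and supports transcription of inhibitors of the mTOR kinase.

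TAZ does not bind DNA itself and acts mainly through TEAD factors, so the promoter windows of the genes are shown with the letters of a TEAD site and of sites for E-box and ETS factors searched in them. The windows run from 250 bases before to 50 bases after the start of the gene, from RefSeq on GRCh38.p14, both on the plus strand, 5′ to 3′. Capitals mark the motifs found. A window was at hand for AATF and NGDN, 2 of the 3 genes. The AATF window is chr17:36948704-36949003 and the NGDN window chr14:23469453-23469752.
AATF: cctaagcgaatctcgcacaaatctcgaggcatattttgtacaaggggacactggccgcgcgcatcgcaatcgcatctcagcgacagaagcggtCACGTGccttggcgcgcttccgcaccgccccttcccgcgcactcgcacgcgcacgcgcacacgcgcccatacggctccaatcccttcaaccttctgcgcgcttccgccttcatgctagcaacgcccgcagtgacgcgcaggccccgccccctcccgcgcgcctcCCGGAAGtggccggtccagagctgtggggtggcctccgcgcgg
NGDN: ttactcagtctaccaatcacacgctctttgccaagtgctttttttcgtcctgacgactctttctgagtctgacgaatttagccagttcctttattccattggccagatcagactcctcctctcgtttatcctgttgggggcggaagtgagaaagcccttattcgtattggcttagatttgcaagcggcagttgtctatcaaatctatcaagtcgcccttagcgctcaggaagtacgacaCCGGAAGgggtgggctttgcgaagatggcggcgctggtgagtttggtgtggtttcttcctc

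The motifs were GGAATG for TEAD (CATTCC on the other strand), CACGTG for the E-box, which reads the same on both strands, and CCGGAAG for ETS factors (CTTCCGG on the other strand). The AATF window held 1 E-box at position 94, counted from 1 at the left end, and 1 ETS match at position 258. The NGDN window held 1 ETS match at position 240 and no E-box. Neither window held the TEAD letters. Of 35116 RefSeq promoter windows of the same length, 14.0% held the TEAD letters, 7.26% the E-box and 10.3% the ETS letters. A match is a description of letters, and no binding was measured in this series.

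The other sequence in the title is miR-590-3p, whose mature form in RefSeq is given with its seed, bases 2 to 8, in capitals. It lies at chr7:74191253-74191273 on the plus strand of GRCh38.p14.
hsa-miR-590-3p: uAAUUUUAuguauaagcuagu

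Total RNA was depleted of ribosomal RNA and sequenced from both ends. The deposited unit is TPM, which divides by transcript length and states each transcript as a share of its library, so the depth of single libraries is unknown. Because a share moves when other RNAs move, each library was also divided by a median-of-ratios factor, the median ratio to the mean library over 21512 genes; the result is called scaled TPM. The factors were 0.866 to 0.967 in HA-TAZ and 1.06 to 1.21 in control libraries, so the groups did not overlap in them. WWTR1 checked the labels, with 293 to 306 TPM in HA-TAZ libraries and 1.69 to 2.69 TPM in controls. The 10 plasma cell markers were all above the filter of 1 TPM and summed to 2825 to 3262 TPM in HA-TAZ and 4308 to 4877 TPM in control libraries. Most of that sum was IGJ, the joining chain of secreted antibodies, with means of 2457 and 3792 TPM. After scaling, 4 of the 10 had a positive log2 fold change, beside 46.7% of all genes, and the median was -0.03. Among the 10, SLAMF7 was called higher and CD38 lower, beside 4.67% and 2.63% of all genes. Of 16 markers of other cell types, 3 passed the filter, none had a group mean above 3.82 TPM, and 5 were listed at 0 in some library but none in all. Their summed level was 8.24 to 9.58 TPM in HA-TAZ and 9.88 to 12.5 TPM in control libraries. The part of these markers in the results was not tested. In bulk RNA, fewer cells of a type and less RNA per cell cannot be told apart.

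AATF, the most abundant of the 3 genes, had nearly the same scaled level with and without HA-TAZ. Its summed TPM was 55.1, 66.4 and 58.6 in HA-TAZ 1, 2 and 3, and 79.3, 73.2 and 64.7 in control a, b and c. As a share of the library it was therefore lower on average in HA-TAZ (60.02 ± 5.78 against 72.4 ± 7.35 TPM, SD, n = 3 each), with HA-TAZ 2 above control c. Scaled TPM was 63.7, 68.7 and 65.8 in HA-TAZ and 65.6, 67.1 and 61.2 in control libraries. The groups overlapped on this scale, with means of 66.04 ± 2.51 and 64.6 ± 3.08 (SD, n = 3 each). On the log2 scale of scaled TPM + 1, HA-TAZ differed from control by 0.03 (standard error 0.05), and limma, adjusted over all 22651 tested genes, gave an adjusted p of 0.729. Its 95% interval, -0.10 to 0.16, spans folds of 0.932 to 1.12.

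NGDN, also called neuroguidin, had a level under that of AATF and stood higher in HA-TAZ after scaling. Its TPM was 26.9, 25.5 and 24.1 in HA-TAZ 1, 2 and 3, and 27.9, 27.0 and 26.2 in control a, b and c. On the deposited scale the groups overlapped. Scaled TPM was 31.1, 26.4 and 27.1 in HA-TAZ and 23.1, 24.7 and 24.8 in control libraries. Every HA-TAZ library lay above every control library, and HA-TAZ 1 stood apart from the other two. The means were 28.2 ± 2.55 and 24.2 ± 0.978 (SD, n = 3 each). Its log2 fold change of 0.21 (standard error 0.08) had an interval of 0.02 to 0.40, and the limma adjusted p of 0.131 did not pass the threshold of 0.05.

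NOL10, a nucleolar protein with WD repeats, had the smallest SD of the 3 among scaled HA-TAZ libraries, though not among controls or as deposited. Its TPM was 26.7, 29.9 and 27.8 in HA-TAZ 1, 2 and 3, and 32.7, 30.4 and 27.3 in control a, b and c, with overlapping groups. Scaled TPM was 30.8, 30.9 and 31.2 in HA-TAZ and 27.0, 27.9 and 25.8 in control libraries. The HA-TAZ mean of 30.98 ± 0.232 lay above the control mean of 26.9 ± 1.03 (SD, n = 3 each), without overlap. Its log2 fold change of 0.20 (standard error 0.05) had an interval of 0.08 to 0.31. The limma adjusted p of 0.0589 missed the threshold, which was passed when only genes of at least 5 TPM were tested (adjusted p = 0.0408). Calls were more common at that filter, with 2240 genes called against 1652 in the main fit.

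**Figure D1:**
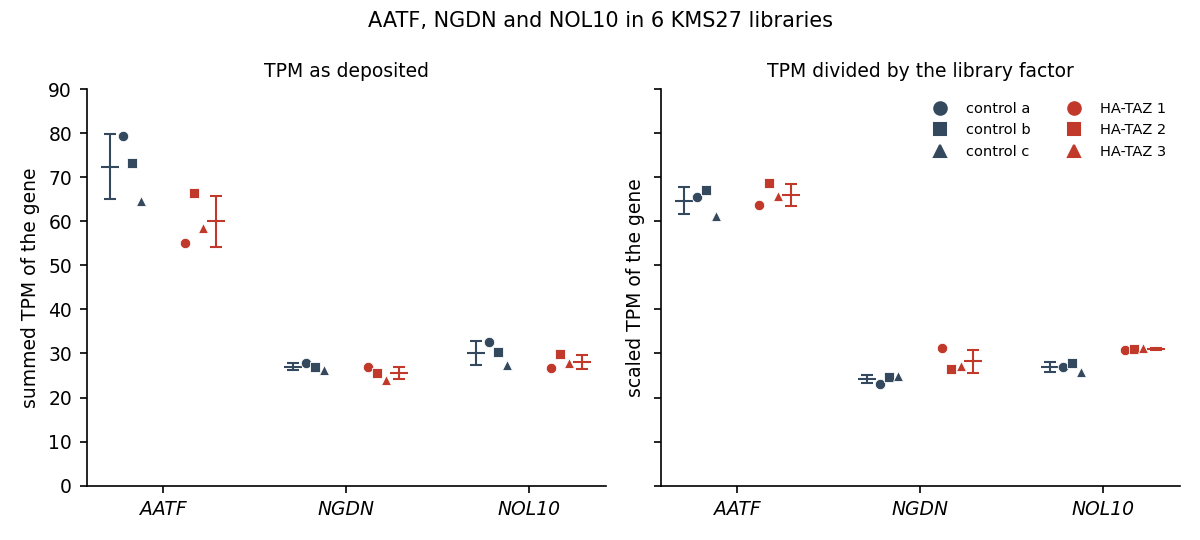
Level of AATF, NGDN and NOL10 in each of the 6 libraries, as summed TPM on the left and as TPM divided by the library factor on the right; symbols are libraries, and the horizontal mark with its bar is the mean and SD of 3 libraries. On the left all groups overlap, and on the right the HA-TAZ libraries of NGDN (26.4 to 31.1) and NOL10 (30.8 to 31.2) lie above their controls while those of AATF do not.

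Of all genes tested, 7.29% were called at an adjusted p under 0.05 (1652 genes, of which 1057 were higher and 595 lower), and none of the 3 genes was among them. Scaled TPM lay wholly higher in HA-TAZ for 20.2% of genes and wholly lower for 18.3%, which is the background for the pattern of NGDN and NOL10. The scale decides the sign for these genes. With TPM as deposited, the log2 fold changes were -0.27 for AATF, -0.08 for NGDN and -0.09 for NOL10, on a scale where the median of all genes was -0.27 against -0.03 after scaling. With library factors from protein-coding genes alone, they were -0.04, 0.14 and 0.12, and the median of all genes was -0.09. On each of these scales all 3 genes lay above the median gene, AATF only slightly as deposited (-0.266 against -0.271). The split of calls moved with the scale too: 64.0% of called genes were higher after scaling, 43.4% with factors from protein-coding genes, 43.2% with factors from genes of at least 10 TPM and 7.84% with TPM as deposited.

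A ratio of genes inside a library does not depend on any factor between libraries. The AATF to NOL10 ratio was 2.07, 2.22 and 2.11 in HA-TAZ 1, 2 and 3, and 2.43, 2.41 and 2.37 in control a, b and c. All HA-TAZ libraries lay below all controls, with means of 2.13 ± 0.0808 and 2.40 ± 0.0306 (SD, n = 3 each) and a log2 difference of -0.17. By exact permutation, two-sided, p was 0.1, the smallest that 3 against 3 libraries allow, and 0.3 after Benjamini-Hochberg adjustment over the 3 ratios. In the AATF to NGDN ratio the groups overlapped: it was 2.05, 2.60 and 2.43 in HA-TAZ and 2.84, 2.71 and 2.47 in control libraries (log2 difference -0.19, exact permutation p = 0.2, adjusted 0.3). HA-TAZ 1, the library in which scaled NGDN was highest, had the lowest value. The NGDN to NOL10 ratio was near 1 in every library, from 0.855 to 1.01 in HA-TAZ and from 0.854 to 0.960 in control libraries (log2 difference 0.01, exact permutation p = 0.8, adjusted 0.8). The ratios share genes and are not independent.

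**Figure D2:**
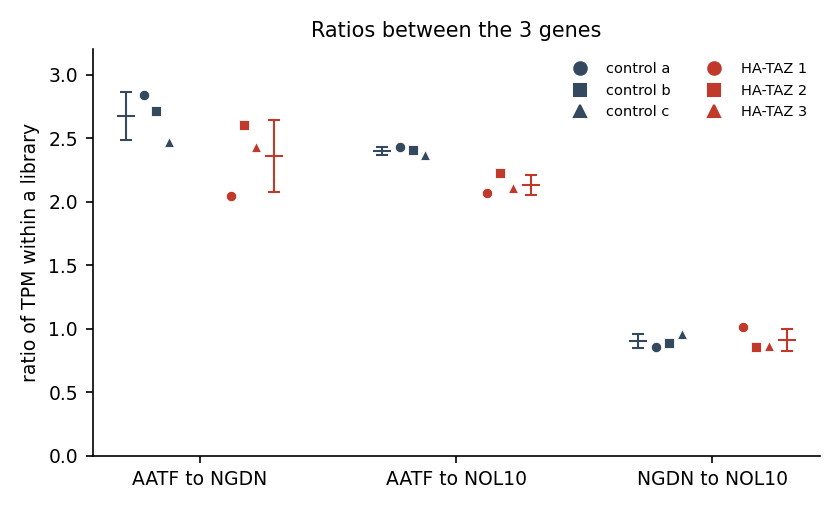
Ratio of TPM between pairs of the 3 genes inside each library, on an axis from 0; symbols are libraries, and bars are the mean and SD of 3. The AATF to NOL10 ratio lies at 2.07 to 2.22 in HA-TAZ and 2.37 to 2.43 in control libraries, and the other pairs overlap.

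The sums hide a difference between transcripts. Each gene has a leading transcript, the one with the highest mean TPM: ENST00000225402.5 for AATF, ENST00000408901.3 for NGDN and ENST00000381685.5 for NOL10. GENCODE release 29 lists the NGDN and NOL10 ones as protein coding, with 1143 and 2589 bases; the transcript IDs of AATF in the files were not matched there, so no type is given for them. In the authors' deposited table, the only members with a q under 0.05 were these 3 leading transcripts, all with a positive effect.

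For AATF the leading transcript had 36.7, 41.9 and 35.8 TPM in HA-TAZ 1, 2 and 3, and 44.6, 40.8 and 36.2 TPM in control a, b and c. Scaled, it was 42.0 ± 1.56 against 36.2 ± 1.69 (SD, n = 3 each) without overlap, and its log2 fold change was 0.21 ± 0.07 (standard error; limma adjusted p over all transcripts 0.155). The authors' deposited table gives a fold of 1.18 and a q of 0.0365 for it.

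For NGDN the leading transcript had 17.5, 17.5 and 16.5 TPM in HA-TAZ and 14.6, 17.4 and 14.9 TPM in control libraries. It was higher on average in HA-TAZ even before scaling, with control b among the HA-TAZ libraries. Scaled means were 18.9 ± 1.15 and 14.1 ± 1.95 (SD, n = 3 each), again without overlap, and its log2 fold change was 0.41 ± 0.12 (standard error; limma adjusted p = 0.118). The authors' deposited table gives a fold of 1.37 and a q of 0.00688.

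For NOL10 the leading transcript had 19.6, 20.5 and 16.7 TPM in HA-TAZ and 17.5, 18.3 and 16.2 TPM in control libraries. HA-TAZ 3 lay below controls a and b on that scale. Scaled means were 20.9 ± 1.92 and 15.5 ± 1.19 (SD, n = 3 each), without overlap, and its log2 fold change was 0.40 ± 0.10 (standard error; limma adjusted p = 0.102). The authors' deposited table gives a fold of 1.37 and a q of 8.12e-04.

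These calls have a background of the same kind. In the authors' deposited table, 4.08% of all transcripts with statistics had a q under 0.05 and a positive effect, but among the leading transcripts of genes with several transcripts and at least 10 TPM the share was 26.4% (1936 of 7327). In the limma fit, 0.534% of 57448 transcripts were called (0.432% higher) and none of the 15 tested transcripts of the 3 genes was, with the lowest adjusted p at 0.0781. Before adjustment, 3 were higher at p under 0.05, the leading ones, and 2 lower, both of AATF, beside 13.1% higher and 11.1% lower among all tested transcripts. With TPM as deposited, the log2 fold change of the leading transcript was -0.08 for AATF, 0.13 for NGDN and 0.12 for NOL10.

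None of the 12 other tested transcripts passed. Of these, 8 had a negative and 4 a positive log2 fold change, from -0.54 to 0.22 with a median of -0.16, where 52.1% of all tested transcripts and 64.6% of retained-intron transcripts were negative. The scaled values of 3 were lower in HA-TAZ without overlap, beside 15.4% of all tested transcripts, and none was higher without overlap, beside 17.0%. The lowest was ENST00000592751.1 of AATF, with 6.90, 6.88 and 6.11 TPM in HA-TAZ and 13.0, 13.5 and 10.9 TPM in control libraries. Its groups were apart as deposited, and scaling left it at 7.32 ± 0.577 against 11.1 ± 1.09 (SD, n = 3 each; log2 fold change -0.54, standard error 0.10, limma adjusted p = 0.0781). The authors' deposited table gives a fold of 0.662 and a q of 0.157 for it. The others without overlap were ENST00000592219.1 of AATF (log2 fold change -0.35, limma adjusted p = 0.181) and ENST00000556103.1 of NGDN, a retained-intron transcript of 454 bases (-0.49, limma adjusted p = 0.219).

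**Figure D3:**
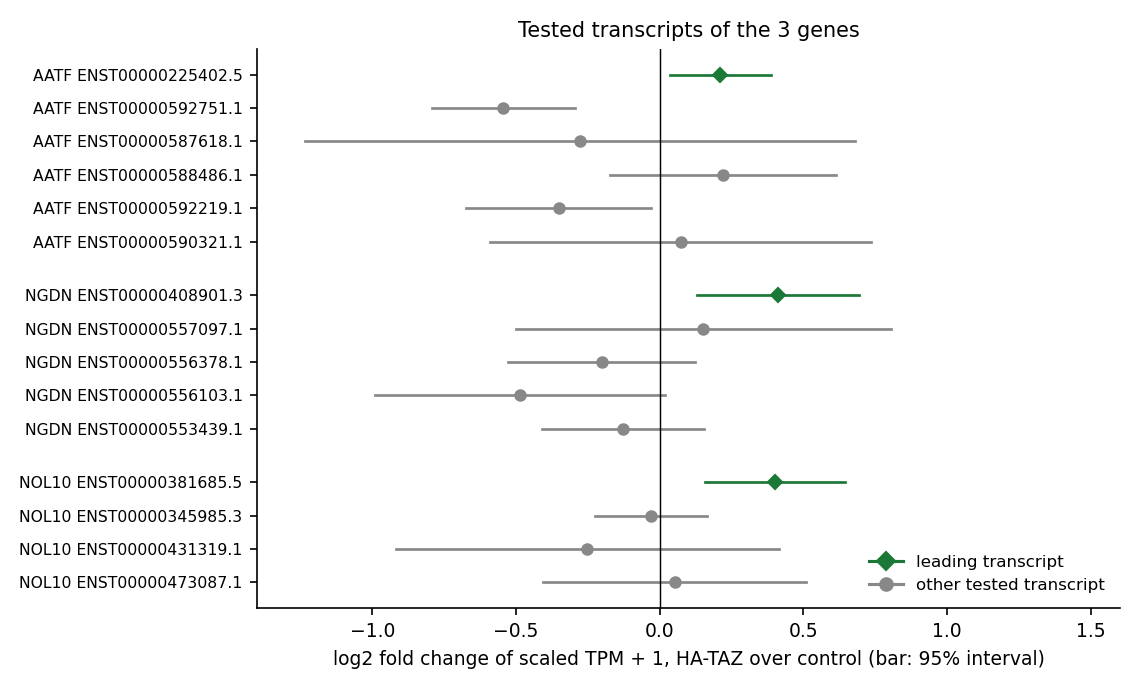
Log2 fold change of scaled TPM + 1, HA-TAZ over control, of the 15 tested transcripts; bars are 95% intervals, diamonds the leading transcripts and circles the others. The leading transcripts lie at 0.21, 0.41 and 0.40, and the others range from -0.54 to 0.22.

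NOL10 has a second long coding transcript, ENST00000345985.3, of 3333 bases, whose values in the groups lay close together. Its scaled TPM was 4.86 ± 0.133 in HA-TAZ and 4.99 ± 0.148 in control libraries (SD, n = 3 each), with overlap. The log2 fold change was -0.03 (limma adjusted p = 0.841), and the authors' deposited table gives a fold of 0.993 and a q of 0.984. Whether the transcripts of NOL10 differed from each other in response was not tested in a model.

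The precision of the transcripts is unequal. The means in the authors' deposited table imply 5085 estimated counts in a typical library for the leading transcript of AATF, 89.4% of the gene's. The same figures are 1026 counts (74.0%) for NGDN and 2887 counts (69.7%) for NOL10. The second coding transcript of NOL10 has 1039. The authors' estimates of technical SD, read on a natural log scale, are 0.0176, 0.0333 and 0.0315 for the leading transcripts. For the other transcripts with statistics they run from 0.0476 to 1.23, with 5.05 to 1039 counts. ENST00000587618.1 of AATF varied from 2.48 to 8.49 TPM inside the HA-TAZ group, with 80.5 implied counts and a technical SD of 0.819. ENST00000592219.1 of AATF has fewer implied counts (47.3) but a smaller technical SD (0.191). Of the 13 transcripts under the filter of a mean of 1 TPM, 1 of AATF was listed at 0 in all 6 libraries. ENST00000538384.1 of NOL10, also under the filter, was listed at 0 in HA-TAZ 1 and had lower scaled values in HA-TAZ (mean 0.302) than in control libraries (mean 0.846), from 38.4 implied counts.

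The share of the gene's TPM held by the leading transcript, which no library factor affects, was higher in HA-TAZ for all 3 genes. For AATF it was 66.7, 63.1 and 61.2% in HA-TAZ 1, 2 and 3, and 56.2, 55.7 and 56.0% in control a, b and c. The control libraries had an SD of 0.244 points, the HA-TAZ libraries one of 2.77, and the mean difference was 7.68 percentage points. For NGDN it was 65.0, 68.4 and 68.4% in HA-TAZ and 52.3, 64.5 and 57.0% in control libraries, a difference of 9.35 points with control b close to HA-TAZ 1. For NOL10 it was 73.4, 68.5 and 60.2% in HA-TAZ and 53.5, 60.2 and 59.4% in control libraries, a difference of 9.69 points in which HA-TAZ 3 and control b were level to the digits shown. By exact permutation, two-sided, each p was 0.1, the floor of this design, and 0.1 after Benjamini-Hochberg adjustment over the 3 genes.

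The same direction was common. Among 7329 genes with several transcripts and at least 10 TPM, the leading share lay wholly higher in HA-TAZ for 24.1% and wholly lower for 8.36%, and its median difference was 1.79 points. The differences of AATF, NGDN and NOL10 stood at percentiles 85.3, 90.3 and 91.0 of those genes. Across all genes, the median log2 fold change of protein-coding transcripts was 0.10 and that of retained-intron transcripts -0.10.

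**Figure D4:**
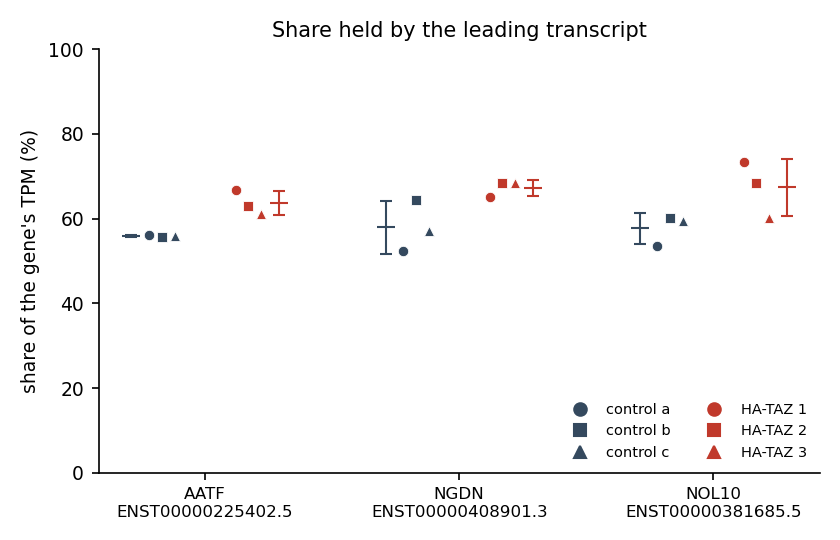
Share of each gene's TPM held by its leading transcript, in percent on an axis from 0 to 100; symbols are libraries, and bars are the mean and SD of 3. HA-TAZ libraries lie at 61.2 to 66.7% for AATF against 55.7 to 56.2% in controls, and the highest control and lowest HA-TAZ library of NOL10 are level at 60.2%.

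NGDN carries most of its remaining TPM in retained-intron transcripts, RNAs that keep an intron, of which it has 8. Their share of the gene was 32.4, 27.1 and 26.5% in HA-TAZ and 44.6, 33.5 and 38.0% in control libraries. The HA-TAZ libraries lay below the controls, at 28.7 ± 3.27% against 38.7 ± 5.57% (SD, n = 3 each; exact two-sided permutation p = 0.1). The scaled TPM of these transcripts overlapped between groups, at 8.14 and 9.33 on average. A wholly lower retained-intron share in HA-TAZ was seen in 29.7% of 4602 genes with such transcripts, and a wholly higher one in 2.50%. NOL10 has 1 such transcript, and its share overlapped, at 6.61 and 7.25% on average.

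For AATF, all transcripts other than the leading one together had 24.0 ± 2.44 scaled TPM in HA-TAZ and 28.5 ± 1.41 in control libraries (SD, n = 3 each). They were 15.6% lower without overlap (exact permutation p = 0.1, adjusted over the 3 genes 0.3). How common such a difference is among all genes was not counted. The leading transcript holds 89.4% of the estimated counts of AATF, so this sum rests on the small remainder. The corresponding sums of NGDN (9.26 and 10.2) and NOL10 (10.1 and 11.4) overlapped. GENCODE release 29 places 5 annotated genes over AATF, of which 4 share its strand, 1 antisense gene over NOL10 and none over NGDN. AATF and NOL10 transcripts could share reads with these genes, which was not tested. The strand setting of the quantification, which matters for genes on the opposite strand, is not given in the sources used here.

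The other listed genes of the small subunit processome had a higher median after scaling than all tested genes. Those include non-coding genes, and no comparison with protein-coding genes of like level was made. Of 47 listed genes, all tested, 6 were called higher in HA-TAZ and 0 lower, where 4.67% of all genes were called higher and 2.63% lower. Their median was 0.17 on the log2 scale against -0.03 over all genes, and 40 of 47 were positive beside 46.7% of all genes. At an unadjusted p under 0.05, 24 were higher and none lower, beside 16.6% higher and 14.1% lower among all genes. These counts moved with the scale. With TPM as deposited, 11 of 47 were positive, and only 3 of the 11 at that p were higher. With factors from protein-coding genes, 39 were positive and 15 were higher at that p. The shares over all genes at that p were not counted on these scales. TBL3, a WD-repeat protein of the UTP-B subcomplex, had a log2 fold change of 0.60 (limma adjusted p = 0.0247). It had 17.0, 17.7 and 18.7 TPM in HA-TAZ and 13.9, 14.0 and 14.4 TPM in control libraries, separate before any scaling. RRP7A, an assembly factor of the small subunit, had 0.47 (limma adjusted p = 0.0347), and IMP4 and IMP3, which bind the U3 small nucleolar RNA particle, had 0.39 and 0.27 (limma adjusted p = 0.0367 and 0.0313). FBL, fibrillarin, which methylates ribosomal RNA, had 0.42 (limma adjusted p = 0.0469).

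Against these 47 genes, AATF stood low by summed TPM and its partners in the upper middle. A larger log2 fold change than that of AATF was found in 39 list genes, than that of NGDN in 15 and than that of NOL10 in 16. The leading AATF transcript, with 89.4% of the gene's estimated counts, was at 0.21, and those of NGDN and NOL10 at 0.41 and 0.40. The calls in the list are not firm: 1 was left with TPM as deposited (median -0.13 against -0.27 over all genes) and 3 with factors from protein-coding genes (median 0.09 against -0.09). Over all genes, 3329 were called as deposited (7.84% of them higher) and 1519 with protein-coding factors (43.4% of them higher). No call in the list was left without any single one of HA-TAZ 1, HA-TAZ 2, HA-TAZ 3, control a or control b. Without control c, 2 were left. Calls fell over all genes too, from 1652 in the main fit to between 118 and 470 with 1 library left out. The loss is therefore not particular to the list. In these fits 16 to 24 list genes were higher at an unadjusted p under 0.05 by limma. The same share over all genes was not counted for these fits.

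**Figure D5:**
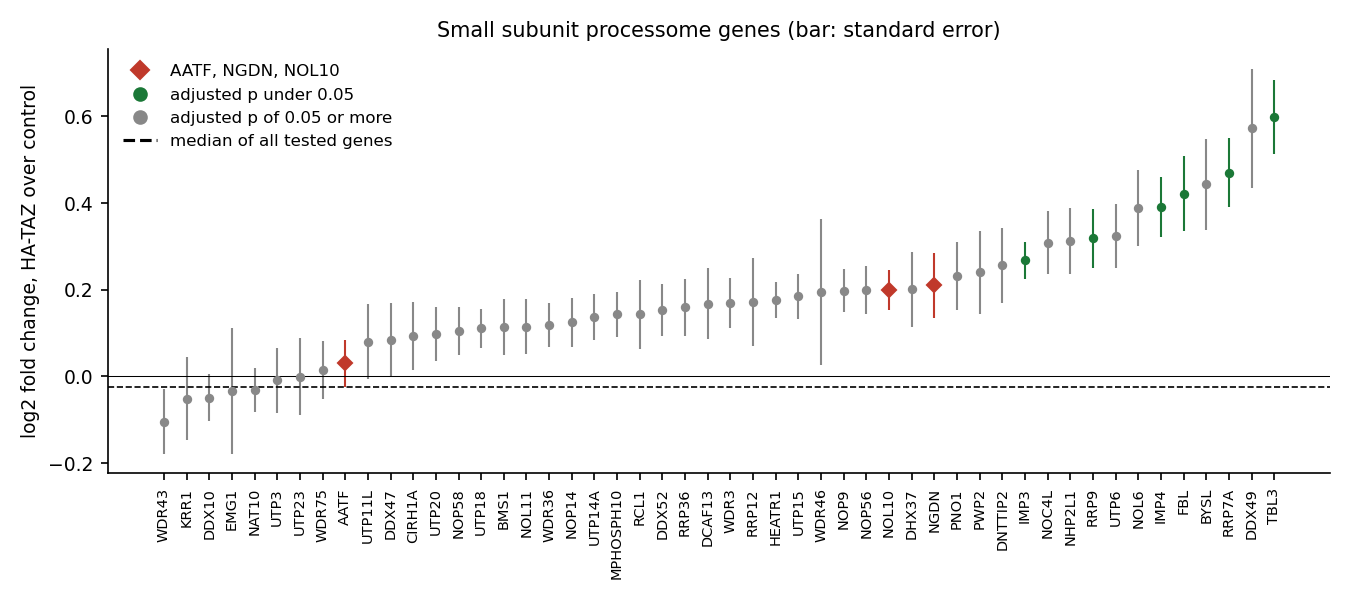
Log2 fold change, HA-TAZ over control, of 47 small subunit processome genes with AATF, NGDN and NOL10 placed among them; bars are standard errors and the dashed line is the median of all tested genes. AATF at 0.03 lies near the low end, NGDN at 0.21 and NOL10 at 0.20 lie above the list's median of 0.17, and the 6 genes in green passed an adjusted p of 0.05.

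Genes whose products bind or modify Che-1 were read next. Of 12, 11 were tested; 1 was called higher and 0 lower, beside 4.67% and 2.63% of all genes, and their median on the log2 scale was 0.06. With TPM as deposited, 1 was higher and 2 lower, with a median of -0.23, and with factors from protein-coding genes the median was -0.017. Over all genes, 3329 were called as deposited, and only 7.84% of these were higher. The gene called after scaling was MAPKAPK2, a stress kinase downstream of p38 that phosphorylates Che-1. It had 33.0, 35.8 and 33.7 TPM in HA-TAZ and 25.9, 24.9 and 22.9 TPM in control libraries, a log2 fold change of 0.75 (standard error 0.05; limma adjusted p = 0.00268). The groups were apart on both scales, and the call held in all 13 alternatives, with log2 fold changes from 0.46 to 0.78. MAPKAPK2 has 2 gene IDs with identical values in the files, so its level is split between them and uncertain.

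The other partners did not pass. ATM, the DNA damage kinase that phosphorylates Che-1, was at -0.26 (limma adjusted p = 0.0927), and DAPK3, a death-associated kinase that binds it, at 0.45 (limma adjusted p = 0.0984). POLR2J, the RNA polymerase II subunit to which Che-1 binds, was at 0.16 (limma adjusted p = 0.146). PAWR, a pro-apoptotic partner, was at -0.11 (limma adjusted p = 0.129). CHEK2, MDM2, HDAC1 and SP1 had adjusted p-values from 0.259 to 0.527 by limma. RB1, the retinoblastoma gene whose product binds Che-1, was under the filter, with 0.181 to 0.469 TPM in HA-TAZ and 0.214 to 0.480 TPM in control libraries.

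Of 6 genes at whose promoters Che-1 is known to act, 1 was called lower and 0 higher, beside 2.63% and 4.67% of all genes. Their median on the log2 scale was 0.06, and it was -0.24 with TPM as deposited and -0.017 with factors from protein-coding genes. DEPTOR, an inhibitor of mTOR, had 36.0, 39.6 and 35.4 TPM in HA-TAZ and 59.7, 57.5 and 52.3 TPM in control libraries. The groups were far apart as deposited and still apart after scaling, with a log2 fold change of -0.30 (standard error 0.05; limma adjusted p = 0.0285). With 1 library left out, in 6 ways, the adjusted p by limma ran from 0.0564 to 0.102, so the call was lost in each. Calls over all genes fell too in these fits, from 1652 to between 118 and 470. Of 13 alternatives in all, the call held in 6, none of which left out a library. DDIT4, another mTOR inhibitor, was at 0.28 (limma adjusted p = 0.131), CDKN1A, the cell cycle inhibitor p21, at 0.51 from about 1 TPM (limma adjusted p = 0.103), and XIAP, an apoptosis inhibitor, at -0.15 (limma adjusted p = 0.326). AKT1, a survival kinase, was at 0.13 (limma adjusted p = 0.336).

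MIR590, the gene of the precursor of miR-590-3p, lies in an intron of EIF4H, a translation initiation factor. The precursor row had 18.5, 14.0 and 12.3 TPM in HA-TAZ and 23.2, 21.4 and 28.2 TPM in control libraries. Deposited values were lower in HA-TAZ without overlap, but scaled values overlapped (log2 fold change -0.39, limma adjusted p = 0.247). This row holds reads assigned to the precursor, not the mature arm printed above, and it is split over 2 gene IDs with the same values. Whether those reads came from the precursor or from the EIF4H intron around it was not tested. EIF4H itself had a log2 fold change of 0.25 (limma adjusted p = 0.0523), but of -0.04 with TPM as deposited. It too has 2 gene IDs.

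The genes whose scaled levels most resembled those of each member over the 6 libraries were ranked by Pearson's r of log2(scaled TPM + 1) among 9050 genes of at least 10 TPM. With 6 libraries in 2 groups, such values are a description and carry no test. For AATF they were SGPL1 (0.978), PIGC, SLC43A3, AC011558.5 and GLYR1 (0.953). For NGDN they were DDX54 (0.991), POLR1D, SF3B1, ZNF672 and PCYT1A (0.985). For NOL10 they included RAP2C (0.998), XRCC6 and AP2B1, the last under 2 gene IDs with equal values (0.995). None of the 3 genes was on another's list: r was -0.11 between AATF and NGDN, 0.505 between AATF and NOL10, and 0.736 between NGDN and NOL10.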

How the data were processed

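Per the submitters' processing notes, reads were handled with kallisto 0.46.0 and sleuth 0.30.0 on GRCh37; the roles of these entries, the annotation release and the strand setting are not given in the sources used here. The authors deposited TPM per transcript in 6 libraries and a table of their own Wald test with p-values, q-values, effects and means as natural log values, and a technical variance as a score per transcript, per the file headers. The symbols, members and lists were chosen with earlier results of these data known. All 6 library columns were used.

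TPM was summed per gene ID and divided by median-of-ratios factors. Genes and transcripts with a mean TPM of at least 1 were tested with limma 3.58.1 (R 4.3.3) on log2(scaled TPM + 1), two-sided, with an intensity trend and Benjamini-Hochberg adjustment over all of them. A fold change on this scale understates the change of low genes. Depth per library is unknown, since TPM keeps none, and precision was judged from the SD of 3 libraries and the authors' mean estimated counts. Ratios and shares were compared by exact permutation over libraries. The code was tested on simulated data. Genes were named by a fixed rule: the 3 members, up to 5 called processome genes, all genes of the lists on Che-1 and the title, and the 5 genes most like each member. Some genes that this rule names are not reported here. GENCODE release 29 (GRCh38) gave transcript types by ID for 182238 transcripts (84.7%). Alternatives were other scalings, pseudocounts and filters, no intensity trend, and leaving out each library. Python 3.11.15, numpy 2.4.6, pandas 2.3.3, scipy 1.17.1 and matplotlib 3.10.9 were used.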

Additional observations from a re-analysis of the deposited data

How the results depend on the processing

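With TPM as deposited, the log2 fold changes were -0.27 for AATF, -0.0808 for NGDN, -0.0945 for NOL10 and -0.0833 for the leading AATF transcript. AATF was also negative with factors from genes of at least 10 TPM (-0.0418), with factors from protein-coding genes, a setting added after seeing the data (-0.0434), and without control c (-0.0081). NOL10 passed at a filter of 5 TPM (0.20, limma adjusted p 0.0408), where fewer genes were tested and more were called than in the main fit. Genes called numbered 2240 at 5 TPM, 1447 with factors from genes of at least 10 TPM and 1519 with protein-coding factors. They numbered 3329 with TPM as deposited, 691 without a filter and 758 without the trend. Transcripts called numbered 120, 111 and 156 in these settings and 1655 at 5 TPM. Processome genes called numbered 1, 2 and 1 in these settings, 14 at 5 TPM, 2 with factors from genes of at least 10 TPM and 3 with protein-coding factors.

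Leaving out each library in turn gave 118 to 470 genes, 12 to 114 transcripts and 0 to 2 processome genes called. It gave log2 fold changes of -0.0081 to 0.0631 for AATF, 0.15 to 0.26 for NGDN and 0.17 to 0.22 for NOL10. Log2 ratio differences were -0.26 to -0.09 for AATF to NGDN, -0.20 to -0.15 for AATF to NOL10 and -0.0635 to 0.0607 for NGDN to NOL10, negative without HA-TAZ 1 (-0.0635) and without control a (-0.02). Leading shares were higher in HA-TAZ by 6.17 to 8.90 points for AATF, 6.51 to 12.6 for NGDN and 6.66 to 13.3 for NOL10. The cause of these shifts was not tested. No paired analysis was possible because the control columns carry a name found in no label, so their numbers pair with no HA-TAZ library. Transcripts other than the leading ones have larger technical SDs, and most have low estimated counts, with the second coding NOL10 transcript as the exception.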
